A study of Populus trichocarpa with 18 samples.

Results

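Black cottonwood protoplasts transfected with PtrSND1-B1 were compared with protoplasts that received sGFP alone, 7 h after transfection. Both groups were made from stem-differentiating xylem of greenhouse-grown Populus trichocarpa by enzymatic removal of the wall, which yields single wall-less cells, and both received their DNA with polyethylene glycol. The PtrSND1-B1 protoplasts carried PtrSND1-B1 together with sGFP (green fluorescent protein) and the control protoplasts sGFP only, so sGFP and the transfection itself were common to both groups. The comparison was chosen by the labelled time and holds 6 of the 18 libraries, 3 per construct, numbered 1 to 3 in each. The other 12 libraries are the same constructs at 12 and 25 h. The labels name neither the promoter of the constructs nor the share of protoplasts that took up DNA, and do not say whether the 3 numbers are separate plants or isolations. The p-values come from a fit of all 18 libraries and reflect the spread of the construct difference within pairs, pooled over the 3 times, which may be technical.

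PtrSND1-B1 is a poplar NAC transcription factor named after SND1 of Arabidopsis. In Arabidopsis, these factors act high in a cascade that switches on secondary wall formation in fibres and vessels, through further NAC and MYB factors to the enzymes of cellulose, xylan and lignin synthesis. In wood, the same wall layers make up most of the biomass. The question at 7 h, the earliest time sampled, was which transcripts had changed soon after the factor was introduced.

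The libraries at 7 h held 4563708, 5628556 and 6625569 counts for PtrSND1-B1 replicates 1, 2 and 3, against 3541698, 4498437 and 5454419 for sGFP, over the first gene model of each locus. Of 40668 loci, 23777 had enough counts to be tested. The file gives locus identifiers without gene names. None of them matched the RefSeq gene table at hand (0 of 40668 loci), so gene families, pathways and cell type markers, those of xylem included, were not analysed here. Genes are given by identifier, and only a few identifiers are printed. The scaffold number in an identifier and the order of identifiers on a scaffold are those of the deposited file.

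The transfected gene was taken to be POPTR_0014s10060.1, partly because of its rise, and so cannot serve to verify the labels. It had 15709, 11690 and 10355 reads in PtrSND1-B1 replicates 1, 2 and 3, against 19, 48 and 21 reads in sGFP. After scaling these were 3372, 1951 and 1440 CPM (reads scaled to library size) with PtrSND1-B1, against 5.19, 10.3 and 3.59 CPM with sGFP. The groups lie far apart, and replicate 3 had the lowest level with PtrSND1-B1. The log2 fold change was 8.40 (SE 0.325, edgeR adjusted p = 4.08e-10). These reads can come from the introduced DNA or from the plant's own gene.

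**Figure D1:**
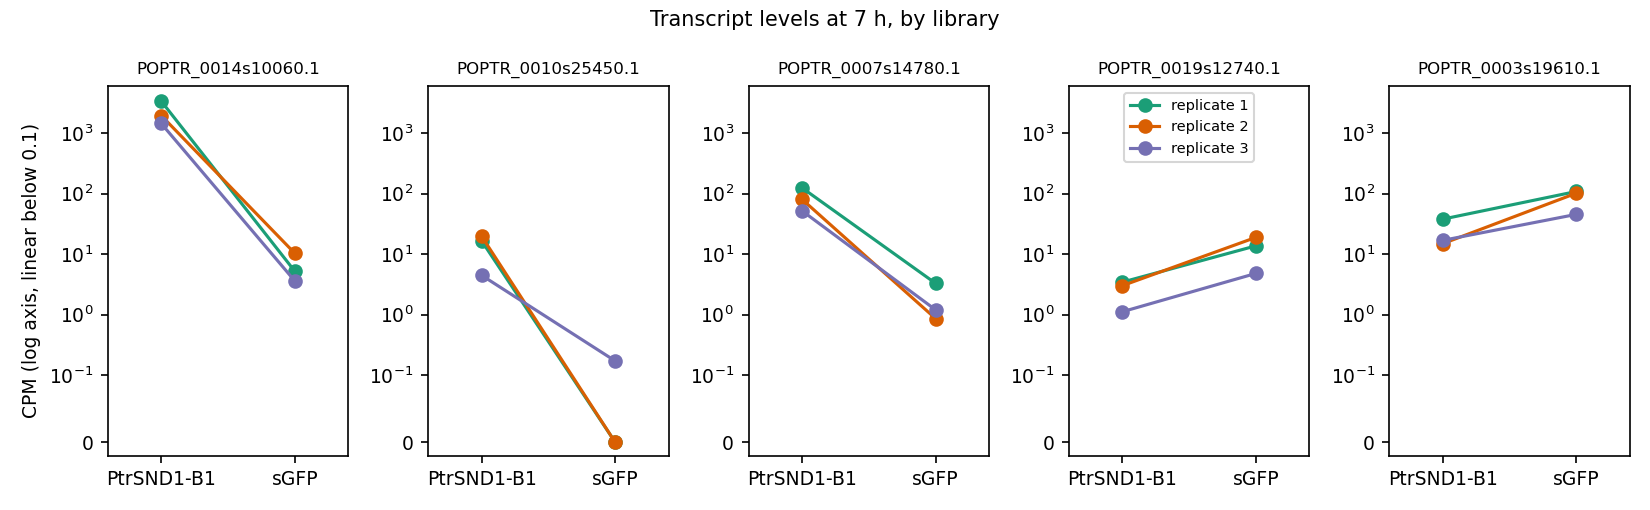
Transcript levels at 7 h in CPM (log axis, linear below 0.1) of the transfected gene, 2 genes that rose and 2 that fell, with PtrSND1-B1 on the left and sGFP on the right of each panel. Each line joins the libraries of a replicate number, and every line shown runs in the direction of its gene's fold change.

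Within replicate numbers, 370 of the 23777 genes (1.56%) had higher and 442 (1.86%) had lower levels with PtrSND1-B1, 3.42% in all, at a Benjamini-Hochberg adjusted p under 0.05 (edgeR's quasi-likelihood test with a term for each pair of libraries). The rises reached further than the falls. Of the 369 rises besides the transfected gene, 111 were at least 2-fold, 45 at least 4-fold and 25 at least 8-fold, against 67, 6 and 1 of the falls. The middle of both lists was alike in size, with a median log2 fold change of 0.63 for the rises and -0.55 for the falls. The median over all tested genes was 0.0027. In the 5% most changed, the rises exceeded 3.69 and the falls went beyond -1.46. The low group of 2 rises and 1 fall held 0 reads, and with these at a floor of 3 counts over the group the medians stayed at 0.63 and -0.55. At most 3 reads lay in the low group of 12 rises and 1 fall, these included. The size of such folds is uncertain, so the longer reach of the rises rests partly on controls close to 0.

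The call depended on comparing libraries within their number. Without the pairing, edgeR called 14 genes higher (0.0589%) and 0 lower (0%), with 303 higher and 237 lower at an unadjusted p under 0.05, fewer than a 0.05 share of the genes tested. DESeq2 with the pair terms called 148 higher (0.622%) and 195 lower (0.82%). With the replicate number as an additive block the counts were 51 higher (0.214%) and 17 lower (0.0715%). The paired counts also changed with each pair of libraries left out, to 182, 120 and 178 higher and 288, 128 and 171 lower genes without replicate 1, 2 or 3. All 370 rises and all 442 falls kept their direction without the pairing. This was nearly fixed in advance, because each pair holds both constructs and dropping the pair terms mainly changes the spread. The median SE of a log2 fold change was 0.164 within pairs and 0.318 without the pairing.

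**Figure D2:**
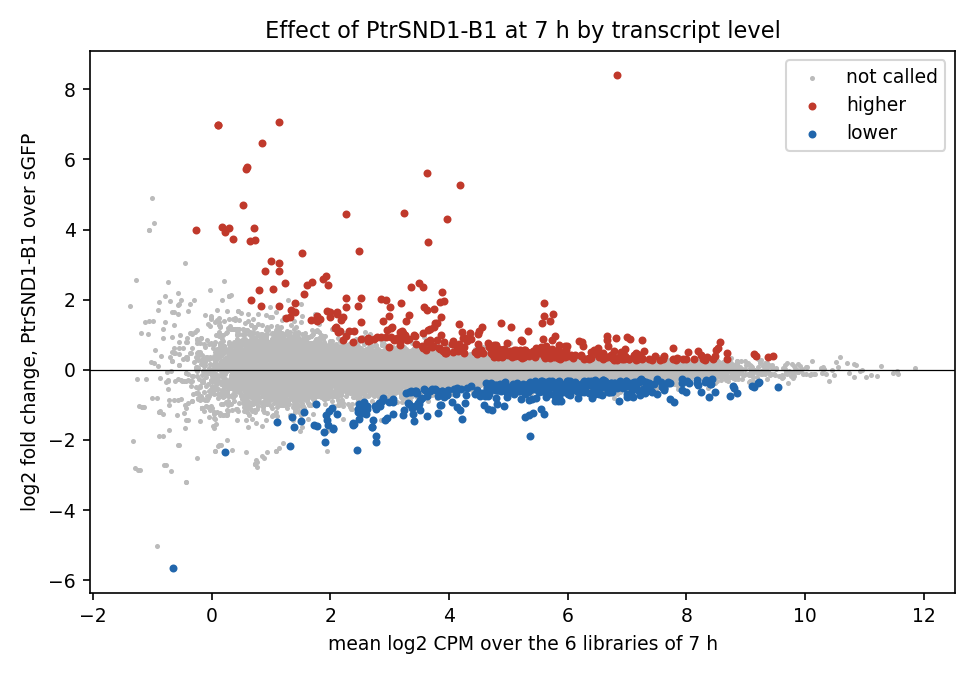
Log2 fold change at 7 h (PtrSND1-B1 over sGFP) of the 23777 tested genes against their mean log2 CPM over the 6 libraries, with called genes in colour. The 370 rises include strong changes of weakly expressed genes, while the 442 falls lie mostly at higher levels and closer to 0.

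Besides the transfected gene, POPTR_0010s25450.1 had the highest fitted fold change among the rises, and was nearly silent in the control. Its place rests on a fold over a control close to 0, and 2 neighbouring loci with 0 control reads had fitted values close to it. It had 77, 118 and 32 reads with PtrSND1-B1, against 0, 0 and 1 read with sGFP. In CPM these were 16.5, 19.7 and 4.45 with PtrSND1-B1, against 0, 0 and 0.171 with sGFP. The groups do not overlap, and replicate 3 again had the lowest level with PtrSND1-B1. The ratio over the group was 180, with a 95% counting interval of 32.0 to 7153 that covers counting error only. The fitted log2 fold change was 7.06 (SE 0.538, edgeR adjusted p = 2.71e-06), a value that depends on the prior count of the fit because the control is so close to 0. Leaving out replicate 2 gave 6.14, and leaving out replicate 3, after which the control held 0 reads, gave 9.62.

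POPTR_0007s14780.1 had the smallest adjusted p of all genes tested. Its level was 125, 80.4 and 51.9 CPM with PtrSND1-B1, against 3.28, 0.857 and 1.2 CPM with sGFP. The lowest PtrSND1-B1 library stands well above the highest sGFP library. The log2 difference within pairs was 5.10, 6.05 and 5.07 for replicates 1, 2 and 3, and the fitted log2 fold change was 5.61 (SE 0.177, edgeR adjusted p = 3.66e-11). It was called under each alternative tried, with a log2 fold change of 5.31 to 5.92 when a pair was left out.

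POPTR_0003s19610.1 had the smallest adjusted p among the 12 largest falls with a mean of at least 1 CPM and a single direction in all pairs. Its level was 37.8, 14.9 and 16.8 CPM with PtrSND1-B1, against 108, 101 and 45.3 CPM with sGFP. The highest PtrSND1-B1 library, replicate 1, lies just under the lowest sGFP library, replicate 3, so the groups do not overlap. The log2 fold change was -1.88 (SE 0.218, edgeR adjusted p = 0.000163), and the adjusted p was 0.956 without the pairing. POPTR_0019s12740.1 was at 3.43, 3 and 1.11 CPM with PtrSND1-B1, against 13.7, 18.9 and 4.78 CPM with sGFP. The groups do not overlap, and replicate 3 was the lowest in both. Its log2 fold change was -2.29 (SE 0.395, edgeR adjusted p = 0.00357), with an adjusted p of 0.12 without the replicate 2 pair, 0.213 with the replicate number as an additive block and 1.00 without any pairing.

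Besides the transfected gene, 13 genes were called even without the pairing. All 13 were higher, and in each the 3 PtrSND1-B1 libraries lay above the 3 sGFP libraries, as they did in 3.85% of all genes tested. The unpaired call on these same libraries favours such separation, so it largely follows from the choice of the 13. Their mean levels ranged from 5.42 to 113 CPM with PtrSND1-B1, against 0.057 to 15.1 CPM with sGFP. The paired log2 fold changes were 1.23 to 7.06, with a median of 4.32. Pair by pair, the median difference was 4.35 in replicate 1, 3.52 in replicate 2 and 3.07 in replicate 3, and 10 of the 13 genes differed least in replicate 3. For the transfected gene, POPTR_0014s10060.1, the difference within pairs was 9.25, 7.52 and 8.51 for replicates 1, 2 and 3, lowest in replicate 2, while its level with PtrSND1-B1 was lowest in replicate 3.

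Nearly all genes of the longer lists kept their direction across pairs. Of the 370 genes called higher, 369 moved the same way in all 3 pairs, as did all 442 genes called lower, against 38.2% of all tested genes in either direction. The rises had a median log2 difference of 0.73, 0.69 and 0.55 in replicates 1, 2 and 3. For the falls it was -0.50, -0.58 and -0.56. Replicate 3 gave the smallest difference for 195 of the 369 rises and replicate 1 for 195 of the 442 falls, so the pair with the weaker rises was not the pair with the weaker falls. These values describe genes chosen by the same pairs.

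**Figure D3:**
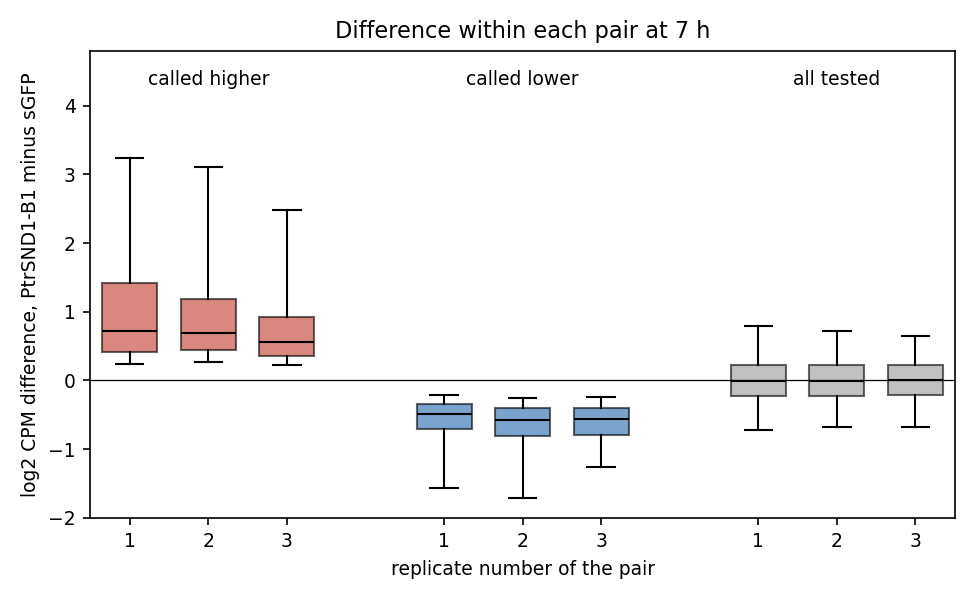
Difference in log2 CPM (PtrSND1-B1 minus sGFP) within each replicate number at 7 h, for the 369 other genes called higher, the 442 called lower and all 23777 tested. Boxes span the quartiles with the median, and whiskers reach the 5th and 95th percentiles. The rises have their lowest median, 0.55, in replicate 3.

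Many called genes differed more between replicate numbers than between constructs. Among the rises, 177 of 370 had PtrSND1-B1 and sGFP levels that overlapped across numbers, and among the falls 280 of 442. The groups did not overlap for 193 rises and 162 falls, against 3.85% and 3.43% of all genes tested. The median SD of log2 CPM over the 3 sGFP libraries was 0.40 for the rises, 0.36 for the falls and 0.30 for all genes. The median SD of the difference over the 3 pairs was 0.21 for the rises, 0.16 for the falls and 0.23 for all genes. The call favours genes with a small spread within pairs and a large difference. The contrasts with all genes in overlap and in this SD therefore follow partly from the selection.

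Rises and falls differed in the level at which the genes were expressed. The mean over the 3 sGFP libraries had a median of 23.0 CPM for the genes called higher, 61.7 CPM for those called lower and 13.2 CPM for all tested genes. The sGFP level is itself part of the contrast that chose both lists. The gap between rises and falls in this level therefore follows partly from the selection. In the quintile of genes with the lowest mean level, up to 3.54 CPM over the 6 libraries, 30 genes were called higher and 8 lower, and all of these changes were at least 2-fold. In the quintile with the highest level, from 49.3 CPM, 129 genes were called higher and 231 lower, with medians of 0.42 and -0.45. Only 7 of those 129 rises, the transfected gene among them, and 5 of those 231 falls were at least 2-fold. The median SE of a log2 fold change was 0.40 in the lowest quintile and 0.083 in the highest, so small changes were detectable only in abundant transcripts.

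The called genes made up a small part of the RNA. The 369 rises held 2.63%, 2.46% and 3.14% of the scaled counts in PtrSND1-B1 replicates 1, 2 and 3, against 1.76%, 1.64% and 2.31% in sGFP. The 442 falls held 3.56%, 2.98% and 2.41% with PtrSND1-B1, against 4.85%, 4.34% and 3.49% with sGFP. Replicate 3 had the highest share of the rises and the lowest of the falls with both constructs. In bulk RNA, fewer cells of a type and less RNA per cell cannot be told apart.

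The falls were concentrated among loci with neighbouring identifiers. Of the 442 genes called lower, 106 (24.0%) had a directly neighbouring locus that was also called lower, against 541 of all 23777 tested genes (2.28%) that had such a neighbour. Of the 370 genes called higher, 24 (6.49%) had a neighbour called higher, against 459 of all tested genes (1.93%). The neighbouring falls formed 31 runs, of which 21 were pairs of loci and 7 had at least 4 loci, with 55 loci in those 7. The 12 runs of rises were all pairs of loci. In 4 neighbouring pairs a rise stood beside a fall. With each run counted once, 358 loci or runs were higher and 367 lower. This pattern was noticed in these data and was not tested against chance.

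The longest run held 14 loci on scaffold 11. The median CPM over its loci was 6.44, 1.5 and 16.5 in PtrSND1-B1 replicates 1, 2 and 3, against 19.7, 8.14 and 34.9 in sGFP. The levels of the run differed strongly between numbers, highest in replicate 3 and lowest in replicate 2 with both constructs, so the groups overlap, while each pair was lower with PtrSND1-B1. The log2 fold changes of the 14 loci were -1.13 to -1.77, with a median of -1.34. The ends of the run are set by the call. The loci directly before and after it were not called but had log2 fold changes of -1.28 and -1.42. The loci beyond those were called lower, at -1.14 and -1.13. Of the 14, 6, 5 and 8 were still called without the replicate 1, 2 or 3 pair, 3 with an additive block and 0 without any pairing.

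A second stretch lay on scaffold 19, with a run of 13 loci that includes POPTR_0019s12740.1 and a run of 7 loci after a single locus that was not called (log2 fold change -0.79, edgeR adjusted p = 0.0721). In the run of 13 the median CPM over loci was 3.65, 5.51 and 3.06 with PtrSND1-B1, against 13.9, 18 and 6.83 with sGFP. The highest PtrSND1-B1 value lies under the lowest sGFP value. The 20 called loci of this stretch had log2 fold changes of -0.63 to -2.29, with a median of -1.34. The locus directly before the run of 13 was not called but had a log2 fold change of -2.32 (SE 0.761). The locus before that was called lower, at -0.74. Of the 13, 9, 6 and 11 were still called without the replicate 1, 2 or 3 pair, and 0 with the additive block or without any pairing. A run of 7 loci on scaffold 10 was more highly expressed and fell less, with a median CPM over loci of 266, 279 and 162 with PtrSND1-B1, against 314, 363 and 208 with sGFP, and a median log2 fold change of -0.50.

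**Figure D4:**
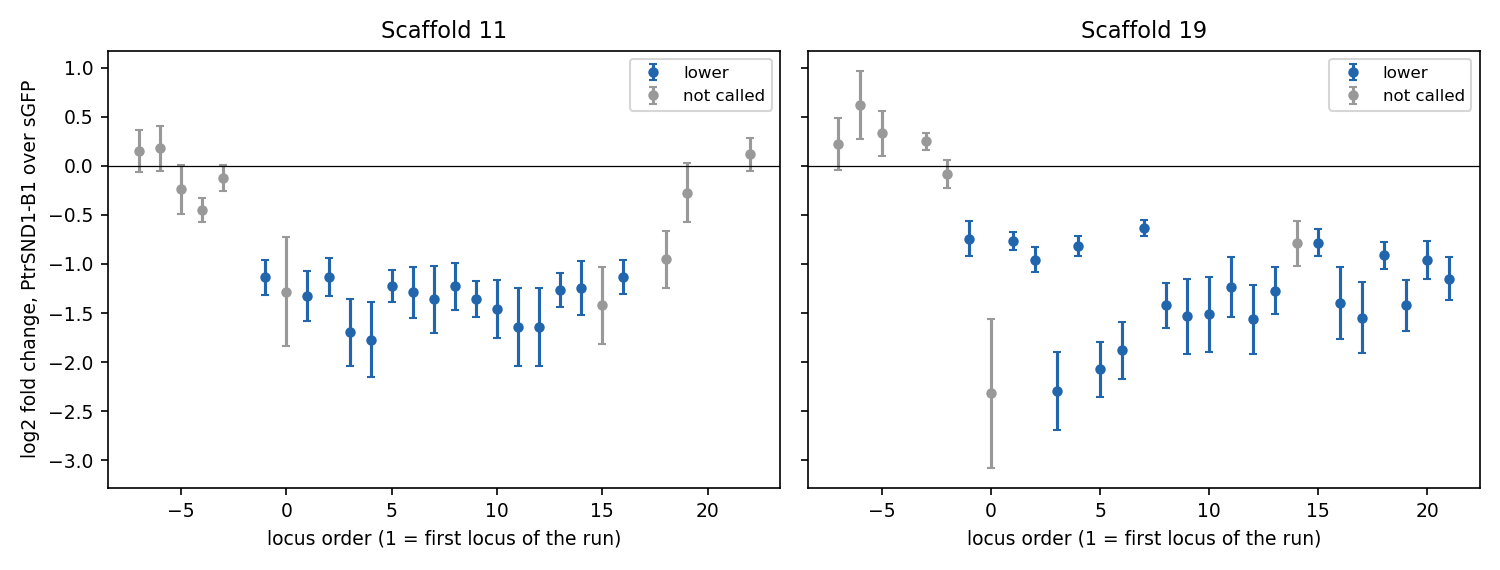
Log2 fold change at 7 h (PtrSND1-B1 over sGFP, bars are SE) of tested loci in the order of their identifiers around the runs of 14 loci on scaffold 11 and 13 loci on scaffold 19. Blue loci were called lower and no locus shown was called higher. The lower values stop within a few loci on either side of the run on scaffold 11, and those on scaffold 19 continue through the next run.

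Neighbours in the longer runs also had similar profiles over the series. Within the 7 runs of at least 4 loci, the median correlation of log2 CPM between neighbours over the 18 libraries was 0.847 to 1.00, against 0.172 for all 15130 pairs of tested neighbours. Over all 75 neighbouring pairs of falls the median was 0.944, and shorter runs of falls went as low as 0.269. The 18 libraries share times and replicate numbers, so these values are a description. In 2 of the 75 neighbouring pairs of falls the counts of both loci agreed within 5% in each of the 6 libraries, and in 8 their sums over the 6 did. Most of these pairs thus did not hold near-equal counts, but counting error alone can exceed 5% in weakly expressed loci. Loci of equal level can therefore fail this check. Reads shared between loci in unequal parts would not show in this comparison. How reads that match several loci were counted is not given in the sources used here, so the part of shared reads in these runs was not tested.

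The effect was compared with the same contrast at 12 and 25 h, which has its own control libraries but comes from the same fit. At 12 h, 116 genes were higher (0.488%) and 184 lower (0.774%), and at 25 h 37 were higher (0.156%) and 68 lower (0.286%). Of the 369 rises at 7 h, 70 were also called higher at 12 h and 20 at 25 h, and 298 were called at neither later time. Of the 442 falls, 133 were also called lower at 12 h and 34 at 25 h, and 305 at neither. No gene called at 7 h was called in the opposite direction later. The median log2 fold change of the rises was 0.63, 0.30 and 0.16 at 7, 12 and 25 h, and that of the falls was -0.55, -0.36 and -0.20. The values at 7 h are those that chose the genes, and the values at 12 and 25 h are not.

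**Figure D5:**
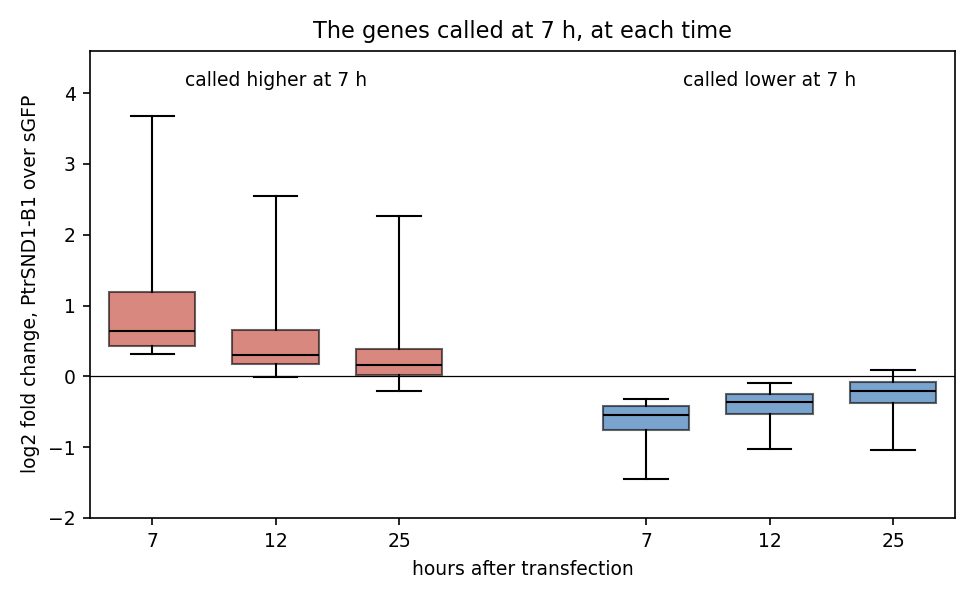
Log2 fold change (PtrSND1-B1 over sGFP) at 7, 12 and 25 h of the 369 other genes called higher and the 442 called lower at 7 h. Boxes span the quartiles with the median, and whiskers reach the 5th and 95th percentiles. The medians move towards 0, from 0.63 at 7 h to 0.16 at 25 h for the rises.

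Tests of the difference itself gave fewer genes. The effect at 7 h differed from that at 12 h for 0 genes by edgeR (smallest adjusted p 0.126, 1005 at an unadjusted p under 0.05) and for 2 by DESeq2. It differed from that at 25 h for 16 genes (0.0673%), of which 14 had the higher effect at 7 h. This count was 4 without replicate 1 or 2 and 20 without replicate 3 of 7 h. Each of the 14 was among the rises at 7 h, 8 of them by at least 2-fold, and their median log2 fold change was 1.06, 0.23 and -0.15 at 7, 12 and 25 h. The values at 7 and 25 h chose these 14 genes, so both medians are shaped by the selection. Of the 13 genes called without the pairing, 11 were also called in the paired fit at 12 h and 4 at 25 h, with medians of 2.62 and 2.00, and 3 of the 13 had an effect at 7 h that differed from that at 25 h.

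POPTR_0007s14780.1 had a log2 fold change of 5.61, 4.05 and 3.84 at 7, 12 and 25 h, and its effects at 7 and 25 h differed by 1.77 (7 h minus 25 h, SE 0.495, edgeR adjusted p = 0.313). POPTR_0010s25450.1 had 7.06, 4.78 and 2.54, with a difference between 7 and 25 h of 4.52 (SE 1.17, edgeR adjusted p = 0.237). POPTR_0003s19610.1 had -1.88, -1.24 and -0.69, with a difference of -1.19 (SE 0.301, edgeR adjusted p = 0.222). For the transfected gene, POPTR_0014s10060.1, the difference was -0.44 (SE 0.598, edgeR adjusted p = 0.908). POPTR_0019s12740.1 had -2.29, -0.73 and -0.70, with a difference of -1.59 (SE 0.736, edgeR adjusted p = 0.625). In these genes a difference between 7 and 25 h did not pass the test, which does not show that the effects were equal.

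The runs of neighbouring falls were partly present later. Of the 14 loci of the run on scaffold 11, 13 were also called lower at 12 h and 8 at 25 h, with medians of -1.66 and -1.51 against -1.34 at 7 h. Of the 13 loci of the run on scaffold 19 that holds POPTR_0019s12740.1, 4 were called lower at 12 h and 0 at 25 h, with medians of -0.73 and -0.70. At 12 h, 25.5% of the genes called lower had a neighbour called lower, and at 25 h 23.5%. For the genes called higher these shares were 5.17% at 12 h and 10.8% at 25 h, where they rest on 4 of 37 genes.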

How the data were processed

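RNA-seq libraries of transfected xylem protoplasts were analysed from the deposited raw counts, given as whole reads for each gene model and library. The submitters' processing notes name TopHat and edgeR, with no role or version. Not given in the sources used here are the genome build, annotation, counter, strandedness and the handling of reads with several matches, so genes that share reads with a copy, a neighbour or an antisense partner are uncertain. Loci were represented by their first model. Libraries were assigned from their titles.

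All 18 libraries entered the fit with edgeR 4.0.16 (R 4.3.3), filtered by filterByExpr over the 6 groups and scaled by TMM. The quasi-likelihood model had 9 pair terms, 1 per time and replicate number, and a construct effect at each time, with 6 residual degrees of freedom. The standard error (SE) is the log2 fold change divided by the square root of F. CPM used TMM-scaled library sizes, and log2 CPM a prior count of 2. The labels do not say that numbers mark shared batches. Libraries were paired by replicate number, with a check in the data for 7 h. Deviations from the group mean correlated at 0.345, 0.679 and 0.752 between same-numbered libraries of 7 h, all over the 0.1 set for pairing. Each library also matched its own number best, which with so few numbers can occur without any pairing. Deviations cancel within a group, so a high correlation with the own number lowers the others. No such check is given for 12 and 25 h, whose pairs also enter the spread behind the p-values.

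Named genes were to be the transfected gene, the 12 largest rises and falls with at least 1 CPM and a single direction in all pairs, and those called without the pairing. As 0 identifiers had a name, only 2 rises and 2 falls of these are printed, chosen after their values were seen: the rise with the highest fitted fold change, the rise with the smallest adjusted p, the fall with the smallest adjusted p among the 12, and a fall inside a run of neighbours. Gene lists by product name, written for pathways and cell types, could not be used. The comparison and lists were chosen with earlier results of these data known. Alternatives were other blocks, scalings, filters and gene models, DESeq2 1.42.0, the 7 h libraries alone and each pair left out. Counting neighbouring calls once was added after seeing the data.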

Additional observations from a re-analysis of the deposited data

Results flagged for a closer look

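The effect of PtrSND1-B1 at 7 h differed from that at 25 h for 16 genes in a direct test of the difference between the times (edgeR, smallest adjusted p = 0.000881), with the higher effect at 7 h for 14 and at 25 h for 2. The count was 0 with no replicate block, 1 with the replicate number as an additive block, 8 with RLE scaling and 4 without replicate 1 or 2 of 7 h, so most of these calls rest on the pair terms and on those libraries. Groups of 3 libraries were too small to look for single libraries far from the rest.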

How the results depend on the processing

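The counts of called genes depended on the block and less on the scaling. The 370 higher and 442 lower genes became 14 and 0 with no replicate block, 51 and 17 with the replicate number as an additive block, 5 and 0 with only the 7 h libraries and no replicate block, 664 and 875 without the low-count filter, and 148 and 195 with DESeq2. With only the 7 h libraries and the pairing they were 500 and 690. Leaving out a pair gave 120 to 182 higher and 128 to 288 lower genes, of which 113 to 163 and 123 to 225 were among the 370 and 442. RLE gave 339 and 447, library size alone 393 and 456, all models as rows 454 and 508, and neighbouring calls counted once 358 and 367. Called in the same direction without each pair, with DESeq2 and with both other scalings were 89 rises (median log2 fold change 1.34, 60 at least 2-fold) and 89 falls (median -0.70, 19 at least 2-fold). The 0 genes that differed between 7 and 12 h became 2 with library size alone, 48 without the filter and 2 with DESeq2. The 16 that differed between 7 and 25 h became 0 with no replicate block, 1 with the additive block, 8 with RLE, 31 with library size alone and 319 without the filter, and 4 to 20 without a pair. For each alternative, the cause was not tested. No printed gene changed direction, and the rise of POPTR_0010s25450.1 missed the threshold with only the 7 h libraries and no replicate block (edgeR adjusted p = 0.241). The loss of calls without the pairing goes with a larger spread, a common coefficient of variation of 29% against 7.9% within pairs. Depth limits weakly expressed genes, where the SE was largest.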

Other observations

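Gene models beyond the first of a locus were not part of the comparison. Of these, 1521 models of 1177 loci had enough reads and counts of their own, different from those of the first model. With all models as separate rows in edgeR, the first model was called in 51 of these 1521 pairings, and the further model had the same sign in all 51 and was called in 42, always in the same direction. In 0 pairings was the further model called without the first. Both models of a locus can share reads, so the agreement is no separate measurement.

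Among the tested first models, 57 loci in 21 sets had counts identical to another locus in all 18 libraries. Of the called genes, 2 rises were such loci, and they are neighbours of each other with 0 reads in the sGFP libraries of 7 h. They therefore stand for a single set of reads.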
